A study of Homo sapiens with 24 samples.

Results

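The genes described here are 8 matrix metalloproteinases (MMP1, MMP2, MMP3, MMP7, MMP9, MMP10, MMP13 and MMP14) and 2 of their tissue inhibitors (TIMP1 and TIMP3). They were chosen by name, with earlier results of these data known, as the non-control spots of the scanner files that carried 1 of these gene names. All 10 are given whatever their values. The 10 genes stand among 44639 gene names on the arrays. Each of them had a probe on all 24 arrays of the series, which gave 240 values, of which some were too dim to measure.

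The series measured RNA of 7 established human cancer cell lines under 13 treatments, with 1 two-colour array for each line and treatment. RNA of the treated cells was labeled with Cy5 and RNA of control cells of the same line with Cy3 on the same array, and the dyes were not swapped, so that a dye effect of a probe and the treatment cannot be told apart within an array. PC3, DU145 and LNCap are prostate cancer lines, FaDu and SAS are head and neck squamous cell carcinoma lines, and A498 and 786O are renal cell carcinoma lines. There was no second array of any condition, so replication came only from different lines, or, for CXCL10, from 2 times in 1 line.

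Genistein, an isoflavone of soy, was given to PC3 and DU145 and compared with cells that the labels call untreated and the study's methods vehicle (dimethylsulfoxide) treated. Wogonin, a plant flavone, was given to SAS and FaDu and compared with dimethylsulfoxide. CXCL10, a chemokine, was given to 786O for 12 h and 24 h and compared with cells without treatment. The siRNA knock-downs were of CAV2 in A498 and 786O, of LAMB3 in FaDu and SAS, and of GOLM1 in DU145 and PC3, each against a control siRNA. The transfected miRNAs, each against a control miRNA, were miR-145 in PC3, DU145 and LNCap, miR-375 in FaDu, miR-29a in SAS, miR-143 in DU145 and PC3, miR-27b in PC3, 786O and A498, and miR-23b and miR-24 in PC3. The labels give no dose, and a time only for CXCL10. Nothing says that arrays of a line came from separate cultures, so p-values measure only the spread between these arrays. Each array holds RNA of a whole culture, in which fewer cells that make a transcript and less of it per cell cannot be told apart.

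Matrix metalloproteinases are zinc enzymes that are secreted or held at the cell surface and cut collagens, gelatin, proteoglycans and other proteins of the extracellular matrix. They are made as inactive precursors, which are activated by removal of a propeptide, often by plasmin or by another metalloproteinase. The tissue inhibitors bind the active site of the enzymes, and in carcinomas the balance of both is studied for its part in invasion. Transcription of several of these genes is known to depend on AP-1 and ETS factors.

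The probes were 60 bases long, and their positions are those of the array annotation on hg19. The probes of MMP7 (chr11:102394029-102394088), MMP10 (chr11:102641405-102641464), MMP1 (chr11:102660697-102660756), MMP3 (chr11:102706694-102706753) and MMP13 (chr11:102813773-102813832) lay in this order within 420 kb on chromosome 11, all for genes on the reverse strand. The probe of MMP2 lay at chr16:55540518-55540577, that of MMP9 at chr20:44645121-44645180, that of MMP14 at chr14:23315791-23315850, that of TIMP1 at chrX:47444666-47444725 and that of TIMP3 at chr22:33258540-33258599, all for the forward strand. MMP1 and MMP9 had 10 spots on every array. The other genes had 2 spots on the 16 arrays of the first array design and 1 spot on the 8 arrays of the second. A further MMP2 probe of the second design (chr16:55423671-55423730) was above background on 0 of 8 arrays and was not used. Whether a probe lies in a coding or an untranslated exon was not determined.

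Of the transfected miRNAs, miR-145, miR-375, miR-23b and miR-29a are shown, because their arrays held the members with the larger ratios. The labels do not name the arm, and the mature sequences below are the RefSeq entries (GRCh38.p14) of the arms that these names usually denote, with the seed, bases 2 to 8, in capitals. They lie at chr5:149430661-149430683 on the forward strand for miR-145-5p, chr2:219001648-219001669 on the reverse strand for miR-375-3p, chr9:95085265-95085287 on the forward strand for miR-23b-3p, and chr7:130876748-130876769 on the reverse strand for miR-29a-3p.
hsa-miR-145-5p: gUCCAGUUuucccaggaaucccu
hsa-miR-375-3p: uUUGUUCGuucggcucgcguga
hsa-miR-23b-3p: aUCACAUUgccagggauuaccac
hsa-miR-29a-3p: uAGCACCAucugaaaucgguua
The 4 seeds differ from each other, and no target site of the members was searched for.

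Promoters of MMP7, MMP10, MMP14, TIMP1 and TIMP3 were matched in RefSeq (GRCh38.p14), and not those of MMP1, MMP2, MMP3, MMP9 and MMP13. The AP-1 motif TGAGTCA, searched on both strands in the 250 bases before the start, was found in 1 of 5 members and in 1476 of 35116 promoters (4.2%). The motif TATAAA, searched in the same way, was found in 2 of 5 members and in 3763 of the promoters. The stretches that hold them are printed on the strand of the gene with the motif in capitals. The AP-1 motif of MMP7 lies 67 bases before the start in the first line, and the TATAAA motifs of MMP7 and MMP10 lie 30 and 31 bases before it in the others.
MMP7 (chr11:102530798-102530824, reverse strand): aacactcaaaTGAGTCAcctatttcca
MMP7 (chr11:102530762-102530787, reverse strand): tgagaagctaTATAAAtttctgcagt
MMP10 (chr11:102780644-102780669, reverse strand): attgtctctgTATAAAagaaaggcca
A match of letters is no evidence of binding.

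The arrays carried 58717 non-control spots each, of which 53.2% to 68.9% were well above background in a channel. The siRNA arrays were checked by their targets. CAV2 was at -3.80 in A498 and -3.20 in 786O, GOLM1 at -3.02 in DU145 and -4.15 in PC3, and LAMB3 at -2.50 in FaDu and -0.89 in SAS, as log2 of Cy5 over Cy3. LNCap had KLK3, a prostate marker, above background, and FaDu had 5 of 5 and SAS 4 of 5 squamous markers above background in all control channels. Of 4 renal markers, A498 had PAX8, CA9 and LRP2 above background and 786O had PAX8 and LRP2 in all controls, while NDUFA4L2 was dim in both and LRP2 was above background in every line. The controls of the CXCL10 arrays stood apart from the other 786O controls. Their SD of the log2 difference to the 786O control of the miR-27b array was 0.908 and 1.01, where different lines of this design differed by 0.969 to 1.29. These SDs are over the 20488 probes above background in every control of the design. Relative to transfected PC3 and DU145 controls, the CXCL10 controls had Pearson r of 0.54 to 0.62 to the other 786O controls and 0.43 to 0.53 to those of A498. The 786O controls of si-CAV2 and miR-27b had r = 0.74 to each other. The 3 PC3 controls of miR-23b, miR-24 and miR-27b differed by only 0.185 to 0.196 and were counted as 1 RNA.

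Values are log2 ratios of treated over control as the scanner software gave them, so that 1 is a 2-fold rise. A gene counted as measured on an array where its probe was well above background in at least 1 channel. That held for 154 of the 240 values, of which 134 were above background in both channels, 19 only in Cy5 and 1 only in Cy3. In the last 20 cases the ratio has a dim side, and a lower bound on the fold is given in place of the fold where 1 exists. Such bounds hold for the software's background subtraction only, and other processing can give smaller ratios. MMP1, MMP9 and TIMP1 were measured on 24 of 24 arrays, MMP14 on 23, MMP7 on 18, MMP13 on 13, MMP2 on 9, MMP3 on 7, and MMP10 and TIMP3 on 6.

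Of the 154 measured values, 21 were above 1 and 14 below -1, and 34 of these 35 lay on the first array design, against 1 of the 47 values measured on the second. MMP1 had 8 of them and MMP13 5, MMP2, MMP3 and MMP7 had 4 each, MMP10 and TIMP3 had 3 each, TIMP1 had 2, and MMP9 and MMP14 had 1 each. Both channels were above background for 22 of the 35. With no background correction and loess in place of the software's processing, 13 values were above 1 and 7 below -1.

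**Figure D1:**
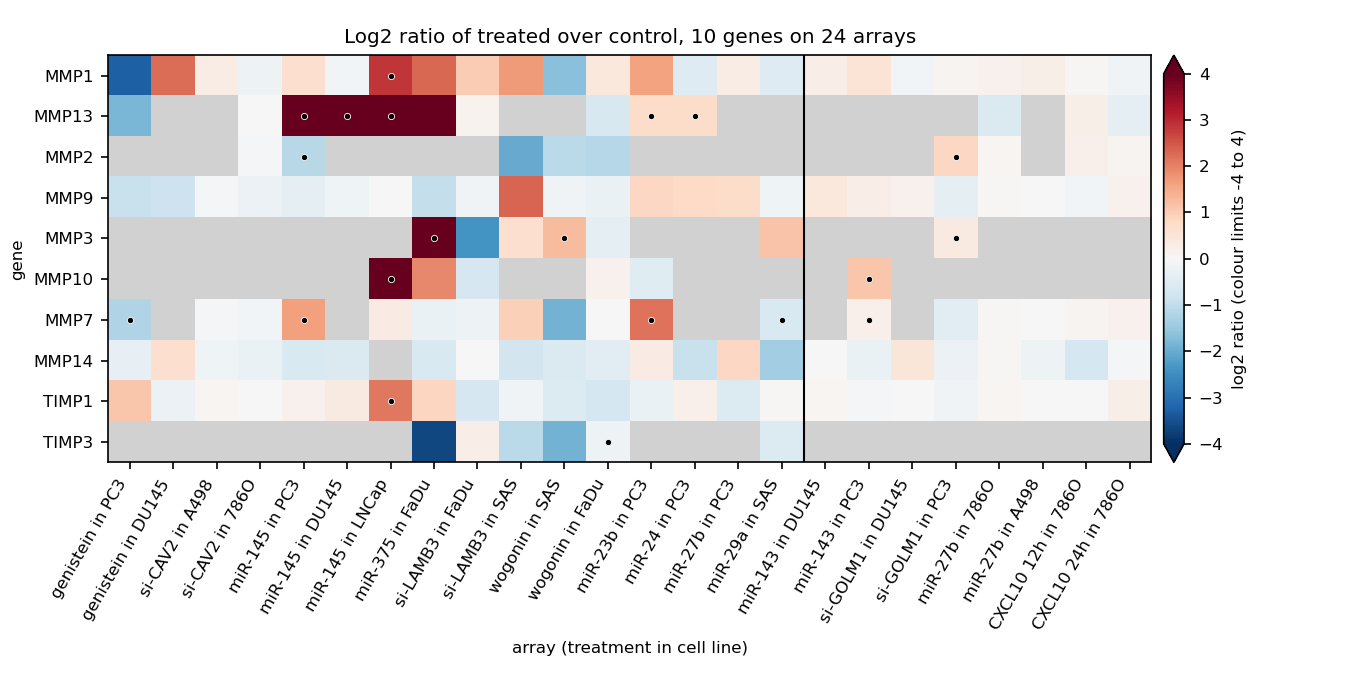
Log2 ratio of treated over control for the 10 genes (vertical, by role) on the 24 arrays (horizontal, labelled by line and treatment), on a colour scale from -4 to 4. Grey cells were above background in neither channel, black dots mark values above background in 1 channel only, and the vertical line separates the 2 array designs, of which the first holds 34 of the 35 values past 1.

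The number of members past 1 was read against the share of all probes past 1 on the same array, in either direction. With genistein, 4 of 6 measured members in PC3 were past 1, where 17.8% of all probes were, and 1 of 4 in DU145, where 12.5% were. With miR-145 there were 3 of 7 in PC3 against 14.2%, 1 of 5 in DU145 against 5.66%, and 4 of 6 in LNCap against 8.84%. The 4 members in LNCap were all above 1. Each member past 1 with miR-145 was above background in 1 channel only, and counted as measured through that channel. That channel was Cy5 in all cases but MMP2 in PC3. The share of all probes follows the same rule and was not split by channel.

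In the squamous lines, miR-375 in FaDu gave 5 of 9 against 22.7%, si-LAMB3 gave 2 of 9 in FaDu against 10.5% and 4 of 8 in SAS against 14.8%, and miR-29a in SAS gave 2 of 7 against 10.5%. Wogonin gave 5 of 8 in SAS, 4 of them lower, against 14.1%, and 1 of 10 in FaDu against 11%. In PC3, miR-23b gave 2 of 7 against 11.4%, while miR-24 gave 0 of 5 against 26.2% and miR-27b gave 0 of 4 against 13.9%. The array with the largest share of changed probes thus had no member past 1.

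The remaining arrays had few changed probes and nearly no changed member. They were si-CAV2 with 0 of 5 in A498 against 3.18% and 0 of 7 in 786O against 2.81%, miR-143 with 0 of 4 in DU145 against 4.17% and 1 of 6 in PC3 against 3%, and si-GOLM1 with 0 of 4 in DU145 against 1.6% and 0 of 7 in PC3 against 4.22%. For miR-27b there were 0 of 7 in 786O against 4.3% and 0 of 5 in A498 against 4.07%. For CXCL10 there were 0 of 7 at 12 h against 3.14% and 0 of 7 at 24 h against 3.19%.

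**Figure D2:**
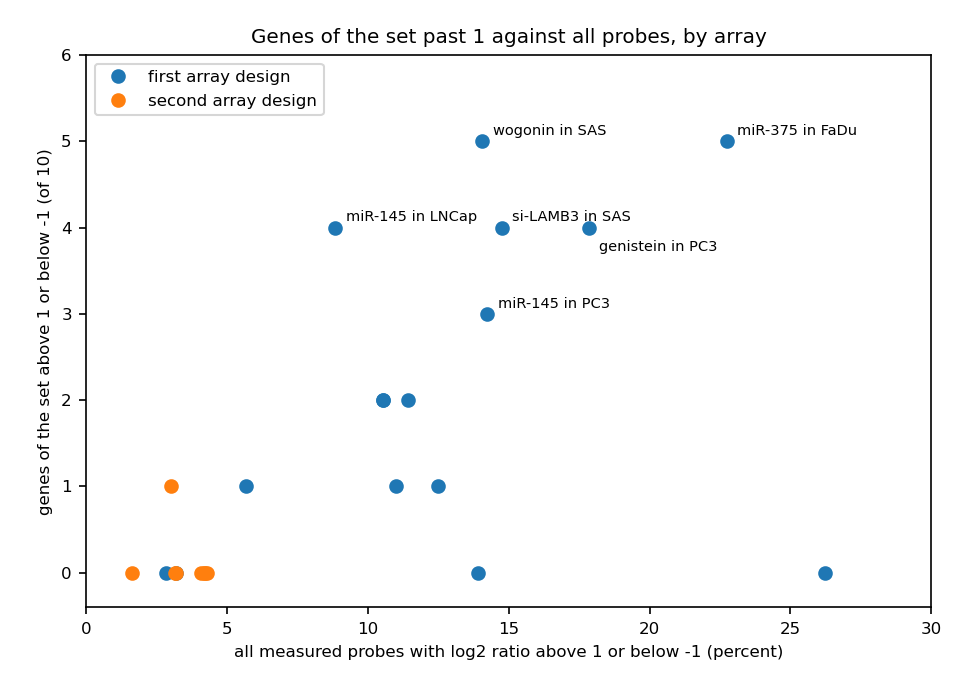
Number of members past 1 in either direction on each array (vertical axis) against the percentage of all probes past 1 on the same array (horizontal axis), 1 point an array, blue for the first and orange for the second array design. miR-375 in FaDu and wogonin in SAS had 5 members past 1, and miR-24 in PC3, at 26.2% of probes, had 0.

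Over the arrays of a treatment, limma tested the mean ratio against 0 with a spread shared by all arrays of the design, adjusted over all probes. Of 48 tests of a member in a treatment, 1 passed an adjusted p of 0.05, the rise of MMP13 with miR-145. It was 1 of 4 members tested there, where 5.03% of all probes passed. None of 4 members passed for genistein (7.95% of probes), of 5 for si-CAV2 (0.0675%), of 7 for si-LAMB3 (5.35%), of 8 for wogonin (2.11%), of 7 for CXCL10 (0.0421%), of 4 for miR-143 (0.0578%), of 5 for miR-27b (0.35%) and of 4 for si-GOLM1 (0.168%). At an unadjusted p below 0.05 in limma, members passed as 2 of 4 for miR-145 (21.8% of all probes), 1 of 7 for si-LAMB3 (24.2%), 1 of 8 for wogonin (20.8%), 2 of 4 for miR-143 (15.4%) and 0 for the other treatments (4.65% to 26.9%). Treatments with 1 array (miR-375, miR-23b, miR-24 and miR-29a, and miR-27b on the first design) had no test.

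MMP1, the interstitial collagenase that cuts fibrillar collagens, was past 1 in both directions, on 6 arrays above 1 and on 2 below -1. Its lowest value was with genistein in PC3, at -3.27 with a software error of 0.37, and in DU145 the same treatment gave 2.23 with an error of 0.30. The error is the scanner software's technical estimate for 1 array, not a spread between cultures. The mean of both was -0.52 (SE 1.17, adjusted p = 0.81 in limma).

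With miR-145, MMP1 was at 0.67 in PC3, at -0.10 in DU145 and at 2.85 in LNCap. In LNCap its control channel was not above background, and the difference was at least 4.07-fold with the software's background subtraction. With no background correction and loess the LNCap log2 ratio was 0.73, within 1. MMP1 was also higher with miR-375 in FaDu (2.28), with si-LAMB3 in FaDu (1.02) and SAS (1.71) and with miR-23b in PC3 (1.62). Wogonin gave -1.66 in SAS and 0.43 in FaDu. The si-LAMB3 mean of 1.37 (SE 1.17, n = 2 arrays) had an adjusted p of 0.51 in limma.

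On the 8 arrays of the second design MMP1 stayed between -0.13 and 0.55. It was at 0.28 in DU145 and 0.55 in PC3 with miR-143, at -0.10 and 0.10 with si-GOLM1, at 0.17 in 786O and 0.25 in A498 with miR-27b, and at 0.04 and -0.13 after CXCL10. The remaining values on the first design, si-CAV2 at 0.29 in A498 and -0.20 in 786O, miR-24 at -0.51, miR-27b at 0.29 and miR-29a at -0.50, were also within 1.

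MMP13, collagenase 3, was the gene with the largest ratio, and it rose with miR-145 in all 3 prostate lines. Its log2 ratio was 7.17 in PC3, 5.38 in DU145 and 4.95 in LNCap. The control channel was not above background on these 3 arrays, with processed signals of 23.8, 3.17 and 8.16 against treated signals of 3431, 132 and 252. With the software's background subtraction the rise was therefore at least 144-fold in PC3, at least 20.0-fold in DU145 and at least 22.5-fold in LNCap. In PC3 the bound is the ratio itself. With no background correction and loess the log2 ratios were 5.13 in PC3, 2.10 in DU145 and 2.27 in LNCap, which lie below these bounds. Over the 3 arrays the bounds averaged 40.2-fold on the log scale, and limma gave a mean of 5.83 (SE 0.48, adjusted p = 0.011). MMP13 entered that fit through the treated channels alone, and the mean, its SE and its p rest on controls at background. The size of the rise thus depends on the background correction. The call was not made with the spread of these 3 arrays alone (adjusted p = 0.057) or with normexp and loess (mean 2.60, adjusted p = 0.099), and the fit that asked for both channels above background did not test it.

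Markers of leukocytes were read on the same arrays, since MMP13 and its neighbours are also made by cells of the stroma and by macrophages. CD68, which is not restricted to leukocytes, was at 2.39, 1.61 and 2.58 with miR-145 in PC3, DU145 and LNCap, and PTPRC, which defines leukocytes, at 1.08, -0.15 and 0.62. The summed level of both leukocyte markers went from 1.02 to 5.11, from 3.13 to 9.47 and from 0.248 to 1.29 times the 75th percentile of the array. In control channels of all arrays the sum ranged from 0.248 to 10.6. PDGFRB was above background on none of the 3 arrays, and DCN and LUM only in the treated channel of PC3. The summed level of the 4 stroma markers (COL1A1, PDGFRB, DCN and LUM) went from 1.55 to 2.91, from 0.096 to 0.142 and from 0.284 to 0.223. Their part in the rise of MMP13 was not tested.

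MMP13 was also higher with miR-375 in FaDu, at 4.26 with an error of 0.45, and there both channels were above background. It was lower with genistein in PC3, at -1.83 with an error of 0.36. The other measured values were 0.74 with miR-23b and 0.72 with miR-24 in PC3, each with a dim control, 0.14 with si-LAMB3 and -0.65 with wogonin in FaDu, and, in 786O, -0.03 with si-CAV2, -0.56 with miR-27b, and 0.23 and -0.38 after CXCL10. The remaining 11 arrays did not measure it.

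**Figure D3:**
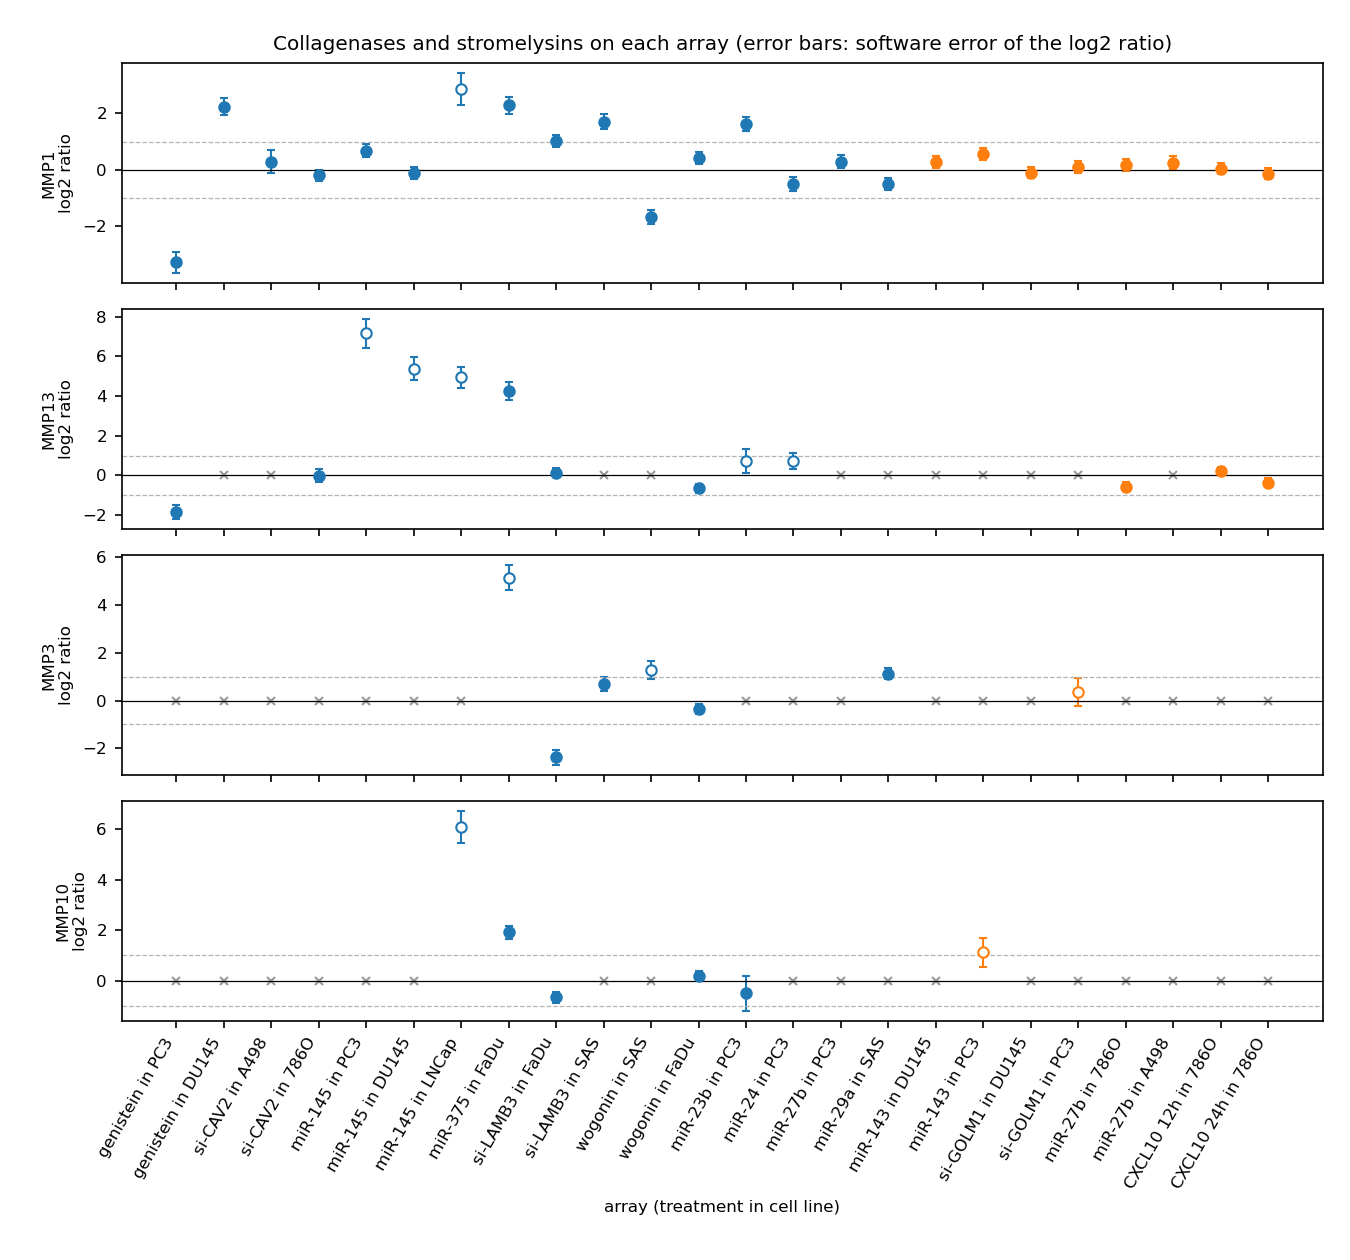
Log2 ratio of treated over control (vertical) of MMP1, MMP13, MMP3 and MMP10 on each of the 24 arrays (horizontal), blue for the first and orange for the second array design, with bars for the software error of 1 array and dashed lines at -1 and 1. Open circles were above background in 1 channel only and grey crosses in neither, as for the miR-145 values of MMP13 at 7.17, 5.38 and 4.95, which are open.

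MMP2 and MMP9 are the gelatinases, which cut denatured collagen and basement membrane collagen IV. MMP2 was measured on 9 arrays and was past 1 on 4, each time lower. It was at -2.03 with si-LAMB3 in SAS, where the SD between its spots was 0.29. Wogonin gave -1.07 in SAS and -1.13 in FaDu, where the spots differed with an SD of 1.81, and the mean of -1.10 (SE 0.18) had an adjusted p of 0.096 in limma. With miR-145 in PC3 the value was -1.10 from spots with an SD of 1.56. The treated side was dim there. With loess after normexp or after no background correction all 4 values lay within 1, at -0.71 to -0.30, and both wogonin values changed sign when the other treatment of the slide was subtracted. In 786O, the line with the highest MMP2 level, the values lay between -0.07 and 0.20.

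MMP9 was measured on all arrays and was past 1 on 1 of them, si-LAMB3 in SAS, at 2.34 with an error of 0.30. In FaDu si-LAMB3 gave -0.13, and the mean of both was 1.11 (SE 0.45, adjusted p = 0.18 in limma). Without the FaDu array the SAS value alone had an adjusted p of 0.026, where the 1 array was assumed to vary like those of other treatments. Genistein gave -0.90 in PC3 and -0.83 in DU145, with a mean of -0.87 (SE 0.45, adjusted p = 0.26), and miR-375 gave -0.95 in FaDu. The PC3 arrays of miR-23b, miR-24 and miR-27b, which share their control, gave 0.81, 0.80 and 0.73.

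MMP3 and MMP10, the stromelysins, cut proteoglycans, laminin and fibronectin and activate other metalloproteinases. MMP3 was measured in FaDu and SAS and on 1 PC3 array. With miR-375 in FaDu it was at 5.15, and over its dim control this was at least 35.5-fold higher. With si-LAMB3 it was at -2.38 in FaDu and 0.68 in SAS, with errors of 0.30 each, and the mean of -0.85 (SE 0.85) had an adjusted p of 0.61 in limma. Wogonin gave 1.28 in SAS, at least 2.42-fold, and -0.36 in FaDu, and miR-29a gave 1.13 in SAS. The si-GOLM1 array of PC3 gave 0.35 with a dim control.

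MMP10 was at 6.10 with miR-145 in LNCap, at least 42.0-fold over a dim control. The error of that ratio was 0.63, and with no background correction and loess the log2 ratio was 3.11. In PC3 and DU145 the same miRNA left MMP10 below background in both channels, so that LNCap was the only prostate line with a value. It was at 1.91 with miR-375 and -0.66 with si-LAMB3 in FaDu, and at 0.18 with wogonin in FaDu. In PC3 it was at -0.50 with miR-23b and 1.12 with miR-143. The latter, at least 1.43-fold, was the only member value past 1 on the second array design.

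MMP7, matrilysin, is a small metalloproteinase made by epithelial cells. It was measured on 18 arrays and was past 1 on 4 of them. In PC3 it was at 2.16 with miR-23b and 1.64 with miR-145, at least 2.22-fold and 3.11-fold over dim controls. Genistein in PC3 gave -1.20, a value with little behind it, since 1 of 2 spots was above background in the treated channel only and the spots had an SD of 0.87. Wogonin gave -1.88 in SAS (error 0.40) and 0.00 in FaDu. With si-LAMB3 it was at -0.22 in FaDu and 0.96 in SAS, where the spots had an SD of 1.32. In A498 and 786O, MMP7 stayed between -0.12 and 0.18 on 6 arrays.

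MMP14, the membrane-type enzyme that activates the MMP2 precursor at the cell surface, had the narrowest range of the 10 genes, from -1.39 to 0.83. It was measured on 23 arrays, and the 1 value past 1 was that of miR-29a in SAS, with an error of 0.24. The next values were -0.90 with miR-24 and 0.83 with miR-27b in PC3. With miR-145 it was at -0.62 in PC3 and -0.57 in DU145 and not above background in LNCap, and with wogonin at -0.57 in SAS and -0.42 in FaDu, a mean of -0.49 (SE 0.26, adjusted p = 0.33 in limma).

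TIMP1, a soluble inhibitor of most metalloproteinases, was above 1 on 2 arrays. It was at 1.12 with genistein in PC3 (error 0.23) and -0.22 in DU145. With miR-145 it was at 0.16 in PC3, 0.37 in DU145 and 2.11 in LNCap, with a mean of 0.88 (SE 0.38, adjusted p = 0.22 in limma). The LNCap value was at least 2.23-fold over a dim control with the software's background subtraction. With no background correction and loess its log2 ratio was 0.46, within 1. TIMP1 was at 0.85 with miR-375 in FaDu. With si-LAMB3 it was at -0.68 in FaDu and -0.14 in SAS, and with wogonin at -0.71 in FaDu and -0.55 in SAS.

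TIMP3, the inhibitor that is held in the matrix, was measured in the squamous lines alone, on 6 arrays. It was at -3.65 with miR-375 in FaDu, with an error of 0.40. In SAS it was at -1.88 with wogonin, -1.09 with si-LAMB3 and -0.56 with miR-29a. In FaDu it was at 0.26 with si-LAMB3 and -0.21 with wogonin, and the wogonin mean of -1.05 (SE 0.54) had an adjusted p of 0.36 in limma. In FaDu the miR-375 array thus gave MMP13, MMP3, MMP1 and MMP10 above 1 and TIMP3 below -1. In LNCap the miR-145 array gave MMP10, MMP13, MMP1 and TIMP1 above 1, all over dim controls. With no background correction and loess, MMP1 and TIMP1 lay within 1 there. Each set comes from 1 array.

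The control channels were then compared between lines, as log2 of the Cy3 signal relative to the 75th percentile of the array. The F test over lines passed for 8 of 9 members tested on the first design, where 58% of all probes passed, and for 5 of 7 on the second, where 37.5% did. A probe was tested where all controls of at least 1 line were above background. MMP10 entered the first design through FaDu alone, TIMP3 through SAS alone and MMP2 through 786O alone. MMP2 and MMP13 entered the second through 786O alone. The tests of these members are thus largely against levels at or near background. MMP9 on the first design (adjusted p = 0.17) and MMP1 and MMP14 on the second (adjusted p = 0.07 and 0.27 in limma) did not pass. MMP3 was not tested. Without the 786O control of the miR-27b array, and with the CXCL10 controls kept, MMP1 and MMP14 passed on the second design (adjusted p = 0.016 and 0.032 in limma). On the first design MMP9 passed without the SAS control of the miR-29a array (adjusted p = 0.026). On the second, TIMP1 did not pass without any 1 of 6 controls (adjusted p 0.064 to 0.21), and MMP9 without any 1 of 3 (0.051 to 0.071). Without the controls of the CXCL10 arrays, a comparison chosen after the data were seen, 7 of 7 passed on the second design.

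**Figure D4:**
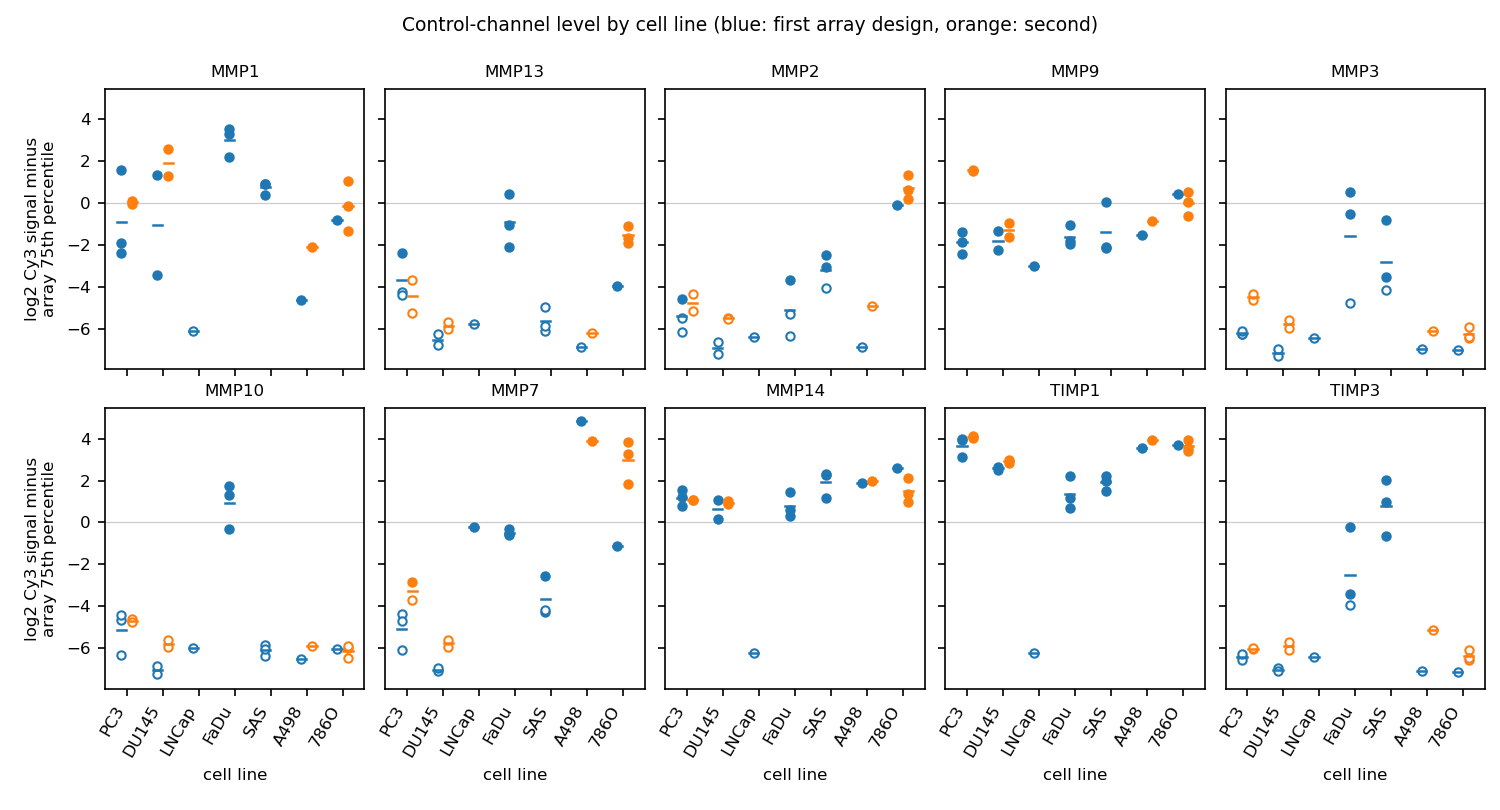
Level of each member in the control channels, as log2 of the Cy3 signal relative to the 75th percentile of the array (vertical), by cell line (horizontal), blue for the first and orange for the second array design. Filled points were above background and open points were not, and dashes are line means, which for MMP10 were 0.91 in FaDu and -6.10 in SAS.

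FaDu and SAS, the 2 squamous lines, differed in 4 of 9 members tested, where 20.2% of all probes did. MMP10 was at -0.33, 1.31 and 1.75 in the FaDu controls and below background in all 3 SAS controls, at least 55.3-fold lower (fitted difference 7.01, SE 0.59, adjusted p = 3e-05). MMP10 entered the fit through the FaDu channels, and its fitted difference, like that of MMP13, is against levels at background. MMP13 was at -2.08, -1.05 and 0.42 in FaDu and below background in SAS, at least 14.7-fold higher (difference 4.73, SE 0.68, adjusted p = 0.00092). MMP7 was higher in FaDu as well, at -0.48 ± 0.17 against -3.65 ± 0.97 (SD, n = 3 each, adjusted p = 0.0019 in limma). Its SAS level of -4.17, in the control of the miR-29a array, was not above background.

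TIMP3 ran the other way, at 0.79 ± 1.36 in SAS and -2.52 ± 2.01 in FaDu (SD, n = 3 each), a difference of -3.30 (SE 0.90, adjusted p = 0.026 in limma). TIMP3 entered the fit through SAS alone, and its FaDu level of -3.93 was not above background. Its levels overlapped, with -0.66, 0.99 and 2.04 in SAS and -3.93, -3.40 and -0.22 in FaDu, and the call was lost without any 1 of 4 of these 6 controls, at an adjusted p of 0.079 to 0.094. MMP1 was at 3.01 ± 0.71 in FaDu and 0.75 ± 0.31 in SAS, the highest line means of this probe on the first design (difference 2.26, SE 1.21, adjusted p = 0.23). Within the second slide, which held all SAS controls and 2 of the 3 FaDu controls, MMP1 (2.66, adjusted p = 0.0015) and MMP14 (-1.47, adjusted p = 0.043) passed too. Without the FaDu control of the miR-375 array or the SAS control of the miR-29a array MMP14 also passed (adjusted p = 0.045 and 0.036). MMP3 was at 0.53 and -0.52 in FaDu and -3.52 and -0.81 in SAS and was dim in 1 control of each.

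PC3 and DU145 were compared on each design. On the first, 2 of 9 members passed, where 21.9% of all probes did. They were MMP13 (difference 2.84, SE 0.76, adjusted p = 0.024) and MMP7. MMP13 was above background in 1 of 5 PC3 channels and 0 of 2 of DU145, and MMP7 in no channel of either line. Neither has a bound on the fold, since the PC3 mean of MMP13 holds dim levels too. MMP13 did not pass with the slide as a block (adjusted p = 0.051) or without the PC3 control of genistein (0.061) or either DU145 control (0.069 and 0.12). MMP7 was not called without any 1 of 4 of these controls (0.082 to 0.13). With normexp neither passed, at 0.58 (adjusted p = 0.32) for MMP13 and 0.27 (adjusted p = 0.26) for MMP7, and on the first slide alone MMP13 had an adjusted p of 0.075. Both differences are thus between levels at or near background.

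On the second design 2 of 7 passed, where 17.2% of all probes did. MMP9 was at 1.55 and 1.58 in PC3 and -1.61 and -0.96 in DU145, a difference of 2.85 (SE 0.42, adjusted p = 0.008). On the first design that difference was -0.09 (adjusted p = 0.94 in limma), since the PC3 controls there lay at -2.42 to -1.36. TIMP1 was higher in PC3 on both, by 1.17 (SE 0.25, adjusted p = 0.027) on the second and by 1.09 (SE 0.44, adjusted p = 0.11) on the first. With 1 control left out on the second design, TIMP1 was called in 0 of 4 cases (0.12 to 0.16) and MMP9 in 1 of 4 (0.055 to 0.06 in the others). Without the CXCL10 controls MMP1 (-1.89, adjusted p = 0.044) and MMP7 (adjusted p = 0.012) passed as well. MMP7 was above background in 1 of 2 PC3 and 0 of 2 DU145 controls there, so that no bound on its fold is given.

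The renal lines and LNCap stood at the ends of several ranges. MMP7 was at 4.84 and 3.88 in A498 and at -1.13 in 786O on the first design and 1.82, 3.27 and 3.85 on the second, the last 2 from the CXCL10 controls. MMP2 was at -0.10 in 786O on the first design and 0.71 ± 0.58 (SD, n = 3) on the second, where the control of the miR-27b array alone was at 1.33, and was dim in A498 on both. MMP13 was above background in 786O, at -3.97 and at -1.54 ± 0.42 (SD, n = 3), with the miR-27b control at -1.66. In LNCap, MMP7 (-0.21) and MMP9 (-3.02) were the only members above background in the control, and MMP1, MMP14 and TIMP1, which were above background in the controls of every other line, were not.

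For several members the controls of 1 line differed as much as treated and control did. MMP1 in PC3 was at 1.57 in the control of genistein and at -2.38 and -1.88 in the transfected controls, and in DU145 at -3.43 in the control of genistein and 1.33 in the transfected control, all on the first design. The genistein controls were thus the highest in PC3, where the ratio with genistein was -3.27, and the lower in DU145, where it was 2.23. TIMP3 was at -0.22 in the FaDu control of the miR-375 array and at -3.40 and -3.93 in the others, and MMP3 was at -4.75 there and at 0.53 and -0.52 in the others.

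Of the 35 values past 1, 31 came from a line with another control on the same design. In 25 of them the control of the array lay on the side opposite to the ratio, that is above the other controls of the line where the ratio was below -1, or below them where it was above 1. The control was the highest of its line for 11 of 14 falls and the lowest for 10 of 17 rises. Over all probes the opposite side was held by 76.7% of 56935 such values, so that the members did not stand out. The ratio and the control level share the Cy3 signal, and how far this moves the ratios was not tested.

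Other genes of matrix proteolysis were counted in the same limma fits. In the rest of the metalloproteinase family, 15 genes with 64 tests, 1 passed, MMP11, which was lower with miR-145 at -1.26 (SE 0.18, adjusted p = 0.018). Of 6 other inhibitors with 40 tests, TIMP2 fell with si-LAMB3, to -1.41 (SE 0.17, adjusted p = 0.0063), and with wogonin, to -1.19 (SE 0.17, adjusted p = 0.023). Of 11 ADAM and ADAMTS proteases with 70 tests, ADAMTS1 fell with genistein, to -1.71 (SE 0.18, adjusted p = 0.016). None of 38 tests of 6 genes of plasminogen activation and none of 102 tests of 12 AP-1 and ETS factors passed at an adjusted p of 0.05 in limma, with 10 each at an unadjusted p below 0.05, where 4.65% to 26.9% of all probes passed, depending on the treatment. The AP-1 and ETS genes had a median of 0.43 with miR-145, 0.49 with genistein and -0.43 with si-LAMB3, against medians of all probes of -0.04, 0.03 and 0.05.

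For the 6 members with enough arrays, the genes with the most similar ratios were looked up, as a description over arrays that share lines and, in PC3, a control. For each member they are the 2 highest among 14291 to 16925 genes. MMP13 was most similar to TRIM21 (r = 0.96 over 13 arrays) and BST2 (r = 0.95 over 12). On 5 of the 13 arrays, those with miR-145 among them, MMP13 was above background in the treated channel only, so that these r rest in part on dim controls. MMP1 was most similar to ATP8A2 (r = 0.89 over 14) and SH3TC2 (r = 0.89 over 12), MMP9 to PSMB1 (r = 0.94 over 24) and LOC401164 (r = 0.87 over 13), and TIMP1 to SPINK1 (r = 0.94 over 18) and EGR1 (r = 0.88 over 21). MMP14 had lower values, with LOC100506105 at 0.79 over 14 arrays and LOC100505806 at 0.77 over 13. MMP7 was most similar to a pair of probes without a gene name. Among these 6 members, MMP1 was most like MMP7 (r = 0.63 over 18 arrays) and MMP13 (r = 0.53 over 13), and MMP13 and MMP14 had r = -0.42 over 12. MMP10 and MMP3, whose probes lie on either side of that of MMP1, were measured on too few arrays to be compared.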

How the data were processed

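RNA of treated (Cy5) and control (Cy3) cells was compared on 24 Agilent two-colour arrays of 2 designs on 3 slides. The files deposited by the authors come from the scanner software (Agilent Feature Extraction 10.7.3.1, from the submitters' processing notes) and hold background-subtracted and dye-normalized intensity values per spot and the log10 ratio of Cy5 over Cy3. Here log10 ratios were turned into log2, control spots and 419 to 614 spots with outlier flags per array were left out, and a probe's value was the mean of its spots. In a channel, well above background means that at least 0.5 of the spots were. No spot was saturated. Of a gene's probes the brightest was used. For control levels, log2 of the Cy3 intensity was set against the 75th percentile of the array. Arrays, not read depth, limit the precision.

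Limma 3.58.1 in R 4.3.3 fitted treatment means against 0, and line means of the control levels, for each design, with Benjamini-Hochberg adjustment over all probes tested. Fits were tested on simulated data. Similar genes were the 2 with the highest Pearson r over 12 or more arrays. Other work used Python 3.11.15. In lower bounds, the lowest signal well above background on an array stood in for a dim channel, or the channel's own signal where that was higher. The rule for named genes was all 10 members, at most 2 rises and 2 falls of each further list, and the similar genes. Members and lists were chosen with earlier results of these data known. Alternatives changed the background correction, centring, normalization, filter, slide and left-out arrays.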

Additional observations from a re-analysis of the deposited data

Results flagged for a closer look

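With genistein, MMP1 had values of opposite sign in the 2 prostate lines, at -3.27 on the PC3 array and 2.23 on the DU145 array as log2 of treated over control. With si-LAMB3, MMP3 had values of opposite sign in the 2 squamous lines, at -2.38 on the FaDu array and 0.68 on the SAS array. Values of one sign past 0.5 in 1 line and of the other sign past 0.5 in the other brought both to attention. With 1 array for each line, the difference between lines was not tested in either case. The MMP1 control level was 1.57 in PC3 and -3.43 in DU145, and the MMP3 control level 0.53 in FaDu and -3.52 in SAS.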

How the results depend on the processing

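Of the 35 values past 1, 34 stayed past 1 when arrays were centred on their median and 35 with outlier spots kept. The authors' series matrix holds the same ratios as the scanner files, so that its 35 could not differ. Asking for both channels above background only leaves values out, and the 22 that were kept are unchanged. Changing the background correction and the normalization together moved more. With no background correction and loess 13 values were above 1 and 7 below -1 in place of 21 and 14, and with normexp and loess 13 and 6. With both channels required, 10 were above 1. After the mean of the other treatments on the slide was subtracted, 3 values changed sign, MMP2 with wogonin in SAS (0.96) and FaDu (0.90) and MMP10 with miR-375 in FaDu (-4.19). Each of these genes was measured under 1 other treatment on its slide, so that the mean subtracted was the value of 1 array. MMP13 with miR-145 was the 1 call among treatments. There were 0 calls with both channels required, which left it untested, and 0 with the spread of the treatment's own arrays (adjusted p = 0.057), and 1 to 2 when an array was left out, the added call being MMP9 without the si-LAMB3 FaDu array. Without 1 of its own arrays MMP13 stayed at 5.16 to 6.27 (adjusted p 0.014 to 0.045). With normexp and loess it was at 2.60 (adjusted p = 0.099), and MMP1 with miR-143 passed instead (0.35, adjusted p = 0.042). With no background correction and loess it was at 3.17 (adjusted p = 0.047). For PC3 against DU145 on the first design, 2 members became 1 with quantile normalization, 0 with normexp, 1 with the slide as a block, 1 on the first slide only, and 0 to 2 without a control. On the second design, 2 became 1 without a filter, 0 to 1 without a control, and 4 without the CXCL10 controls. Over lines on the second design, 5 became 3 to 7 without a control. The 4 members that differed between FaDu and SAS became 3 to 6. Without the CXCL10 arrays no call among treatments changed. No paired analysis was possible because every condition has 1 array and the labels number no replicates. The 2 choices were not changed apart, and the cause was not tested. For 13 of the 35 values past 1 a channel was dim, which limits them to bounds.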

Other observations

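Beyond the members, other genes of matrix proteolysis had large ratios, on arrays with many members past 1 and on arrays with none. These are values of 1 array each, with both channels above background and no test. On the miR-145 array of LNCap, PLAUR, the receptor of urokinase, was at 4.83, ADAMTS4, an aggrecan-cutting protease, at 3.98 and FOS, an AP-1 subunit, at 4.29. On the miR-375 array of FaDu, SPOCK1, a proteoglycan, was at 4.06, ADAM8 at 3.26 and FOSL1, another AP-1 subunit, at 2.72, while TIMP2 was at -2.97. In PC3, miR-145 gave PLAU, urokinase, at -2.13 and MMP16 at -1.86.

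Other ends of these lists lay elsewhere, also on the miR-24 and miR-27b arrays of PC3, which had no member past 1. MMP24 was at 2.27 with miR-24 and 1.52 with genistein in PC3 and at -1.77 with wogonin in SAS. PLAT, the tissue-type plasminogen activator, was at 2.97 with miR-27b in PC3 and -2.01 with wogonin in SAS. ADAM8 was at -2.97 and JUND at -1.84 with miR-24 in PC3, and ADAMTS1 at -2.72 with miR-27b in PC3. With si-LAMB3 in SAS, TIMP4 was at 2.04 and ETS2 at -1.92, and SPOCK1 was at -1.72 with wogonin in FaDu.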
